A study of Rattus norvegicus with 12 samples.

Results

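The normal fetal testis of the rat was described from the 6 control lineage arrays of a series of 12, with 2 arrays in each of the F1, F2 and F3 generations. The arrays were chosen by their titles, and the other 6, from the vinclozolin lineage, entered only 1 alternative estimate of the spread. All 3 groups were testes of male embryos at embryonic day 16, and no group was genetically modified per the labels. The founder females of all 3 groups received intraperitoneal vehicle (sesame oil and DMSO) from day 8 to day 14 of pregnancy, so F1 embryos were in the womb during the injections. F2 embryos came from mating F1 males and females of different control lines, and F3 embryos from 1 further round of mating. Strain was not given in the labels. Each RNA was a pool of about 10 testes and was read once on an Affymetrix rat array. Whether separate litters gave the 2 pools of a generation is not stated, so the spread between replicates may be partly technical.

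At this age the testis has assembled cords in which Sertoli cells enclose the germ cells (gonocytes), with steroid-producing fetal Leydig cells, mesenchyme, vessels and macrophages between the cords. Sertoli cells secrete anti-Müllerian hormone, encoded by Amh, which removes the female duct. Fetal Leydig cells make androgens, which maintain the male ducts, and insulin-like peptide 3, encoded by Insl3, which drives testis descent. Gonocytes enter a quiet phase and do not begin meiosis before birth.

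Signals are linear intensities in arbitrary units, given as the mean ± SD over the 6 control arrays (n = 6) unless stated, so that the SD holds both the replicate spread and any difference between generations. Of 31042 probe sets, 3105 (10%) were called bright, with a mean signal above 394.0. A further 10098 (32.5%) were near background, at or below 17.6. That limit was the 95th percentile of 21 probe sets of olfactory receptor genes, whose means ran from 2.90 to 18.7 with a median of 7.73. Of 14224 genes, each taken at its brightest probe set, 2386 were bright, 8606 intermediate and 3232 near background. A signal depends on the probes as well as on the RNA, so a class gives a probe set's place on these arrays and not an amount of RNA set against that of another gene. In a whole organ, fewer cells of a type and less RNA per cell cannot be told apart.

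The promoters of the genes for both hormones are shown because their products define the male fetal gonad and both gave bright signals on all 6 arrays. The 250 bases before each start site are from RefSeq (GRCr8), 5′ to 3′, at chr7:9559868-9560117 on the minus strand for Amh and chr16:18432939-18433188 on the plus strand for Insl3. Capitals mark CAAGGTCA, a letter string of the type bound by the nuclear receptor Nr5a1 (steroidogenic factor 1).
Amh: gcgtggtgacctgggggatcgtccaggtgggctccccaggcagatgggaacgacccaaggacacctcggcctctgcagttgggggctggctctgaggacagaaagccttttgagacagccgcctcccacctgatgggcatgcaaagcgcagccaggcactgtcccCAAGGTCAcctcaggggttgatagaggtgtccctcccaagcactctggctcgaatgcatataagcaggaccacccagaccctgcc
Insl3: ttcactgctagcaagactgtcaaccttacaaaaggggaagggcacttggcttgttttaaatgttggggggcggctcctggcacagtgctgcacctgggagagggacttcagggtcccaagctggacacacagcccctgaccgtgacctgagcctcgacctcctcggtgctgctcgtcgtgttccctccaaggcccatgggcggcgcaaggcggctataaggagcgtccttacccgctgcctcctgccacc
In Amh the string begins at position -85 from the start site, and it was not in the Insl3 window. Searched on both strands of 300-base windows, it was in 509 of 33469 promoters of the RefSeq table (1.52%), in 2 of the 14 matched promoters of the 21 measured Sertoli genes (Amh and Fgf9), and in 0 of the 14 matched promoters of the 21 measured Leydig genes. A match is a string of letters only, and no binding was measured here.

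Fetal Leydig cell genes were prominent, with 10 of 21 measured members bright, 8 intermediate and 3 near background. The 4 genes that define the type here were bright on every array. Cyp17a1, the enzyme that turns progestogens into androgen precursors, had a signal of 3969 ± 82.3, with a lowest value of 3888.7, a median of 3947 and a highest of 4109.5. Cyp11a1, which cuts the cholesterol side chain, ran from 2243.8 to 2521.3 around a median of 2418. Both enzymes varied little from array to array. Star, the carrier of cholesterol into mitochondria, read 849.6 and 828.5 in F1, 764.9 and 690.5 in F2, and 731.2 and 748.4 in F3. Insl3 read 1076.3 and 1114.3 in F1, 1063.2 and 1061.5 in F2, and 969.9 and 967.9 in F3. The 2 F1 values of Star lay above the 4 others, and the 2 F3 values of Insl3 lay below the 4 others. Neither gene passed the test over generations described below (adjusted p = 0.464 for Star and 0.454 for Insl3, limma moderated F test). The remaining bright members were Hsd3b1 (3163 ± 126), Fdx1 (2255 ± 64.7), Inha (884 ± 36), Scarb1 (813 ± 30.3), Acsbg1 (660 ± 13.7) and Nr5a1 (427 ± 18.5). Lhcgr, the receptor through which the pituitary later drives Leydig cells, was intermediate at 304 ± 22.5, as was Hsd17b3 at 259 ± 9.63. Cyp11b1, Gsta3 and Sult1e1 were near background, between 5.32 and 10.6.

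Sertoli cell genes divided into 7 bright, 11 intermediate and 3 near background of 21 measured. Amh read 3081.4 and 3074.9 in F1, 2960.8 and 3230.8 in F2, and 2894.1 and 3182.4 in F3, and the generations overlapped. Aard (2109 ± 65.1), the tight junction gene Cldn11 (892 ± 18.9), the inhibin and activin chain Inhbb (671 ± 33.1) and Vnn1 (447 ± 46.4) were bright. So were Gata4 (921 ± 27.8) and Wt1 (901 ± 57.5), transcription factors of the gonad. Dhh, the hedgehog ligand by which Sertoli cells signal to the interstitium, was intermediate at 209 ± 14.9, with arrays between 190.5 and 227.8. The factors Dmrt1 (97.7 ± 8.67) and Nr0b1 (66.2 ± 10.1) were also intermediate, while the germ cell niche factor Gdnf (7.42 ± 3.81) was near background. Sox9 was not analysed here.

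Of 12 measured gonocyte genes, 1 was bright, 11 were intermediate and none was near background. Tex101 was bright at 445 ± 20.3. Sall4 (255 ± 10.3), Tfap2c (198 ± 14.8), Prdm1 (156 ± 6.04) and Lin28a (150 ± 8.33), regulators of germ cell identity and pluripotency, were intermediate. Tdrd1 (211 ± 9.16), Piwil2 (115 ± 7.45) and Mov10l1 (36.7 ± 3.24), components of the piRNA pathway that silences transposons, were intermediate too. Kit, the receptor for stem cell factor, read 76.3 and 80 in F1, 73.7 and 80.1 in F2, and 64.5 and 61.9 in F3. Both F3 values were below the 4 others, and Kit did not pass the F test (adjusted p = 0.631, limma). Dazl, Ddx4 and Pou5f1 were not analysed here.

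Genes of meiosis and sperm formation were mostly dark, with 15 of 20 measured members near background and none bright. Prm1, a protamine that packs sperm DNA, ran from 3.3 to 16.7 with a median of 10.9, and the transition protein gene Tnp1 from 0.6 to 2.6, both below the limit on all 6 arrays. Sycp1, of the synaptonemal complex that joins paired chromosomes, was near background at 9.47 ± 2.93. Its partner Sycp3, by contrast, was intermediate, at 256.5 and 246.5 in F1, 266.6 and 243.6 in F2, and 303.9 and 285.6 in F3. Smc1b, a cohesin subunit of meiosis, was also intermediate at 206 ± 4.09, and so was Odf2 at 370 ± 14.6, whose product is in centrioles of dividing cells as well as in the sperm tail. Both F3 values of Sycp3 were above the others, without a call (adjusted p = 0.517, limma F test).

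**Figure D1:**
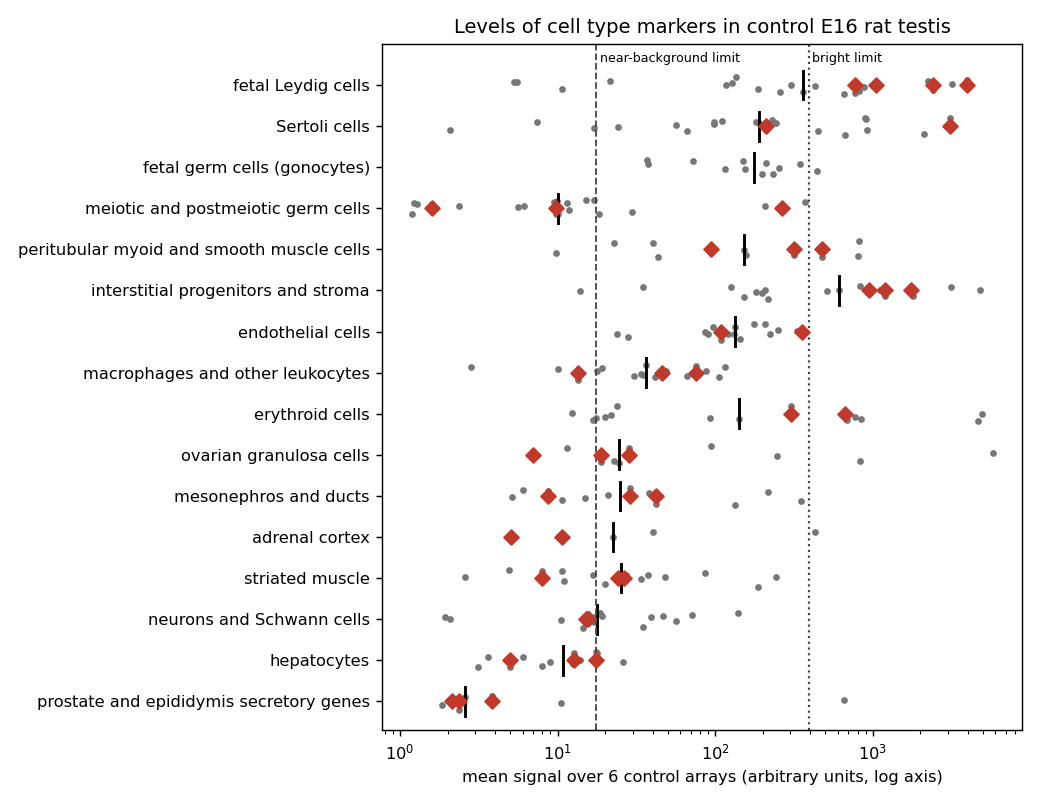
Mean signal over the 6 control arrays (arbitrary units, log axis) of the measured members of 16 cell type lists; each grey point is a gene, red diamonds are defining markers, and black ticks are list medians. The dashed line is the near-background limit of 17.6 and the dotted line the bright limit of 394.0, and Leydig and stromal markers reach past the latter while hepatocyte and secretory markers lie mostly left of the former.

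Outside the cords, the mesenchyme was bright. Of 19 measured interstitial progenitor and stromal genes, 11 were bright, 7 intermediate and 1 near background. Tcf21, a mesenchymal transcription factor, varied least of the 3 defining markers, from 926 to 980.5 around a median of 950. Nr2f2 (1738 ± 74.6) and the PDGF receptor Pdgfra (1187 ± 37.6) were bright, as were the collagens Col3a1 (4789 ± 183) and Col1a1 (3117 ± 183) and the growth factors Mdk (1801 ± 59.1), Ptn (1113 ± 121) and Igf1 (516 ± 14.4). Contractile genes of peritubular and smooth muscle cells were 3 bright, 7 intermediate and 1 near background of 11. Acta2 ran from 457.6 to 492.7 around a median of 469, Tagln from 277.4 to 332.1 around 324, and the later contractile gene Myh11 from 82.6 to 109.4 around 91.1. Endothelial genes were intermediate in 16 of 16 cases, with Kdr, the main VEGF receptor, at 344.7 to 376.7 and Pecam1 at 98.3 to 126.2. Of 17 leukocyte genes, 14 were intermediate, none was bright and 3 were near background. Most of those of macrophages were above the limit, with Mrc1 at 115 ± 5.46, Csf1r, the receptor for their growth factor, at 75.9 ± 14.4, and C1qa at 46.3 ± 2.12. The macrophage scavenger receptor gene Cd163 (2.8 ± 2.48), the general leukocyte gene Ptprc (13.4 ± 3.18) and the T cell gene Cd3e (9.98 ± 4.02) were near background.

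Red cell genes were also bright in part, with 6 of 15 measured members bright, 7 intermediate and 2 near background. Hbe1 (4949 ± 427), Hbb (4673 ± 222), Hbg1 (770 ± 149), Hba-a3 (686 ± 22.2) and Hbz (666 ± 91.1), all globins, were bright, and so was Tfrc (837 ± 38.6), the transferrin receptor, which other dividing cells also express. Alas2 (304 ± 18.8) and Ahsp (141 ± 28.8), which serve heme and globin production in red cell precursors, were intermediate. The erythroid factors Gata1 (19.9 ± 7.63) and Klf1 (17.63 ± 7.91) were at the edge of the limit, and Epb42 and Rhag were near background. Some globin genes are near-identical copies, so some of the globin probe sets may share RNA.

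Markers of the ovary, of neighbouring organs and of other tissues were checked for the label. Of 11 granulosa cell genes, 2 were bright, 7 intermediate and 2 near background. The bright ones were Ctnnb1, which most cells express, and Lhx9 (834 ± 47.1), a factor of the early gonad of both sexes. Foxl2, the granulosa factor, read 28.6 and 17.1 in F1, 18.7 and 24.2 in F2, and 2.8 and 21.3 in F3, on both sides of the limit. Rspo1 (7 ± 1.5) and the aromatase gene Cyp19a1 (11.5 ± 4.19) were near background, while Wnt4 (246 ± 24.8) was intermediate. Of the 12 mesonephric and duct genes, 5 were near background, Pax2 among them (8.65 ± 4.87), and none was bright. Lcn2 (349 ± 24.9), Amhr2 (216 ± 41.3), the receptor of anti-Müllerian hormone, and Emx2 (133 ± 12.3) were intermediate in that list, and Amhr2 and Emx2 are also expressed in the gonad. Of the 5 adrenal genes, 1 was bright, 2 were intermediate and 2 near background, with a list median of 22.35. Cyp21a1 (5.05 ± 3.82) and Cyp11b1 (10.6 ± 3.56) were near background, and Mrap and Akr1b7 were intermediate. The bright one was Nr5a1, which Leydig and Sertoli cells share. Hepatocyte genes were near background in 10 of 12 cases, with Alb at 9.2 to 16.9 and Afp at 8.4 to 23.9. Neuronal and Schwann cell genes were near background in 8 of 16 cases, and the highest was Nefm at 140 ± 14.2.

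Striated muscle genes were near background in 6 of 16 cases, Ckm, Myod1 and Mb among them, and none was bright. Tnnt2, a troponin of heart and early muscle, read 185.1 and 214.6 in F1, 270.3 and 219.4 in F2, and 278 and 289.8 in F3. All F3 values were above those of F1 and F2, without a call (F3 minus F1, log2 difference 0.48 ± 0.10 SE, adjusted p = 0.224, limma). The summed signal of the 16 genes ran from 742.7 to 768.2 in F1, 740.2 to 804.8 in F2 and 817.4 to 843.6 in F3. Of 7 secretory genes of the prostate, epididymis and seminal vesicle, 6 were near background, between 1.83 and 10.5. The seventh was Svs5, a seminal vesicle secretory gene, which was bright on all 6 arrays, between 624.5 and 697.6. Its family member Svs4 was near background at 10.5 ± 5.73, so the list's bright member did not stand for the list. Of the sex-linked genes, the Y-linked Eif2s3y (724 ± 102) was bright and Uty (227 ± 13.2) intermediate, and Xist, transcribed from the inactive X of females, was near background at 10.1 ± 4.03. Sry, the brief trigger of testis formation, was near background at 7.97 ± 2.51.

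**Figure D2:**
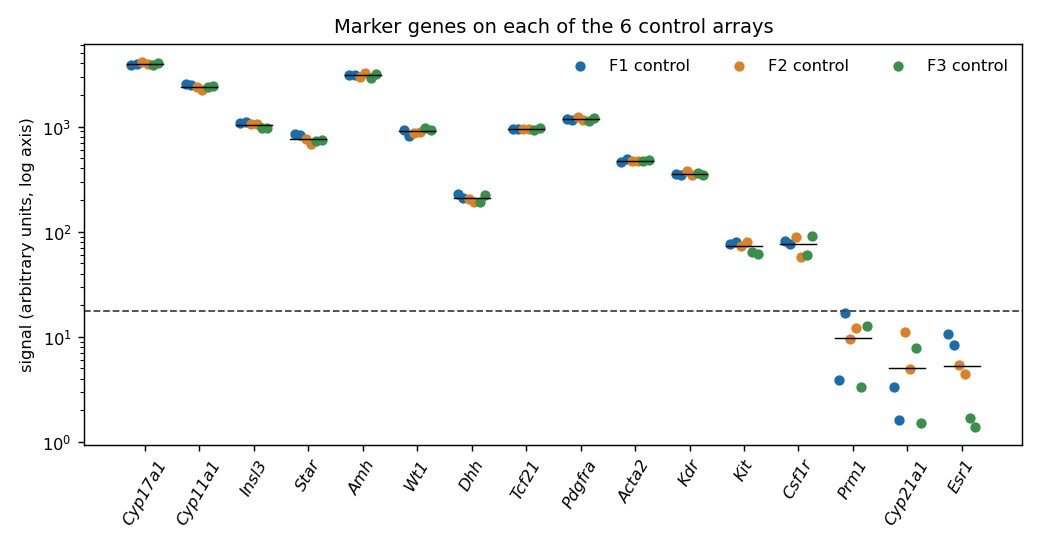
Signal (arbitrary units, log axis) of 16 marker genes on each of the 6 control arrays, coloured by generation, with a black line at each mean; the dashed line is the near-background limit of 17.6. Bright markers form tight groups of 6 points, Cyp17a1 from 3888.7 to 4109.5, and the near-background genes Prm1, Cyp21a1 and Esr1 scatter below the line.

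The signalling pathways between these cells were present at differing steps. In the hedgehog pathway, the receptor component Smo (254 ± 10.6) and the effectors Gli1 (215 ± 6.49) and Gli2 (126 ± 8.39) were intermediate like Dhh, whereas the other ligands Shh (1.13 ± 0.52) and Ihh (11.5 ± 3.17) were near background. In the TGF-beta family, 7 of 25 measured genes were bright, 17 intermediate and 1, the oocyte ligand Gdf9, near background. Beside Amh, Inha and Inhbb, the bright members were the receptor Tgfbr1 (469 ± 8.25) and the signal carriers Smad5 (605 ± 19.9), Smad4 (580 ± 24.4) and Smad2 (510 ± 8.84). In the Wnt pathway, Ctnnb1, which encodes beta-catenin (5822 ± 289), the secreted inhibitor Sfrp1 (821 ± 39.7) and Tcf7 (493 ± 27.5) were bright, and 17 of 22 were intermediate.

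Of the retinoic acid genes, both synthesis and breakdown enzymes were bright. Aldh1a1 (1168 ± 53.7) and Aldh1a2 (798 ± 27.6) make retinoic acid, and Cyp26b1, which degrades it and protects fetal male germ cells from meiosis, ran from 856.2 to 989 around a median of 894. Its relative Cyp26a1 was near background at 12.3 ± 3.06. Among steroid receptors and partners, the chaperone Hsp90ab1 (4751 ± 344) and the immunophilins Fkbp4 (744 ± 17.1) and Fkbp5 (465 ± 16.6) were bright. The oestrogen receptors Esr1 (5.3 ± 3.64) and Esr2 (1.57 ± 0.78) and the progesterone receptor Pgr (6.83 ± 4.49) were near background, and the glucocorticoid receptor Nr3c1 (178 ± 12.4) was intermediate. The androgen receptor gene was not analysed here.

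Genes of growth and housekeeping pathways were mostly bright in several lists. Of the 20 genes of highest signal, 15 encoded ribosomal proteins, and the others were COX2 and COX1 of the mitochondrial genome, Tmsb4x, Eef1a1 and Ctnnb1. Of 58 oxidative phosphorylation genes, 54 were bright and 4 intermediate, and of 27 listed ribosomal protein genes, 24 were bright. Of 37 cell cycle genes, 20 were bright and none was near background. Pcna (2182 ± 68.8), Mki67 (829 ± 28.8) and Top2a (943 ± 24.8), which mark dividing cells, were bright, as was Cdkn1c (3130 ± 101), an inhibitor of division. Imprinted growth genes were also bright in 11 of 18 cases, including Igf2 (1737 ± 88.3), H19 (1545 ± 89.2), Mest (2430 ± 77.2), Plagl1 (2339 ± 111) and Grb10 (1396 ± 28.8). Phlda2, Peg10, Kcnq1 and Ascl2 in that list were near background.

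Among 31 chromatin genes, 18 were bright and 13 intermediate. The maintenance DNA methyltransferase Dnmt1 (564 ± 13.5) and its partner Uhrf1 (416 ± 44.9) were bright, the enzymes of new methylation Dnmt3a (115 ± 10.8) and Dnmt3b (41 ± 9.84) intermediate, and the Tet enzymes, which oxidise methylcytosine, intermediate between 134 and 196. Of 40 matrix genes, 25 were bright and 15 intermediate. The basement membrane genes Nid1 (1513 ± 94.8), Col4a1 (1371 ± 26.8), Nid2 (1240 ± 65) and Lamb1 (1142 ± 69.3) were bright, and the elastic fibre gene Eln (45.4 ± 10.8) was intermediate. Cholesterol synthesis, which feeds steroid production, had 5 bright and 15 intermediate of 20 genes, led by Fdps (1498 ± 39.8) and Idi1 (1047 ± 92.9). Stress genes that rise quickly in handled tissue were partly dark: Fos (27.7 ± 4.92) was just above the limit and Fosb (3.97 ± 4.59) and Atf3 (9.32 ± 4.29) near background, while Egr1 was bright at 416.7 to 466 and Jund at 1375 ± 39.4.

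The bright class varied little over the 6 arrays. The median coefficient of variation was 4.21% over 2386 bright genes, each at its brightest probe set, and 1526 of them were under 5%. Over all 17839 intermediate probe sets the median was 10.4%. In 13 bright genes the highest array was at least 1.5 times the lowest, and in none at least 2 times. The largest spreads on the log2(signal + 16) scale in this class were in Anapc13, Hbg1, Rab11b, Id2 and Myh9. Id2, an inhibitor of differentiation factors, read 1052.1 and 1009.5 in F1, 1187 and 1197 in F2, and 740.1 and 1150.9 in F3, so 1 F3 array stood below its replicate. Anapc13, a subunit of the complex that ends mitosis, read 511.9 and 462.1 in F1, 466.6 and 343.1 in F2, and 575.7 and 578.6 in F3. Rab11b, of vesicle recycling, read 475 and 775.2 on the F1 replicates, which were its lowest and highest values over the 6 arrays.

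Drift among the 3 control generations was small by comparison with the replicates. Between replicates of a generation, the SD of log2 differences over the 21729 probe sets tested was 0.183 to 0.222 (3 pairs), and between arrays of different generations it was 0.199 to 0.225 (12 pairs). The ranges overlapped over most of their length, and the F2 replicates differed from each other by more than 11 of the 12 pairs from different generations. The share of probe sets that differed by at least 1.5-fold was 1.03% to 2.28% for replicates and 1.39% to 2.30% for different generations. With 2 arrays a group, the median 95% confidence interval of a difference between generations was ± 0.25 on the log2 scale, or 1.19-fold. That interval is not adjusted for the number of probe sets, and smaller drift was not detectable for most genes. Larger differences could also miss a call after adjustment, such as Rundc3a in F3 minus F2 (0.78, adjusted p = 0.111, limma).

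**Figure D3:**
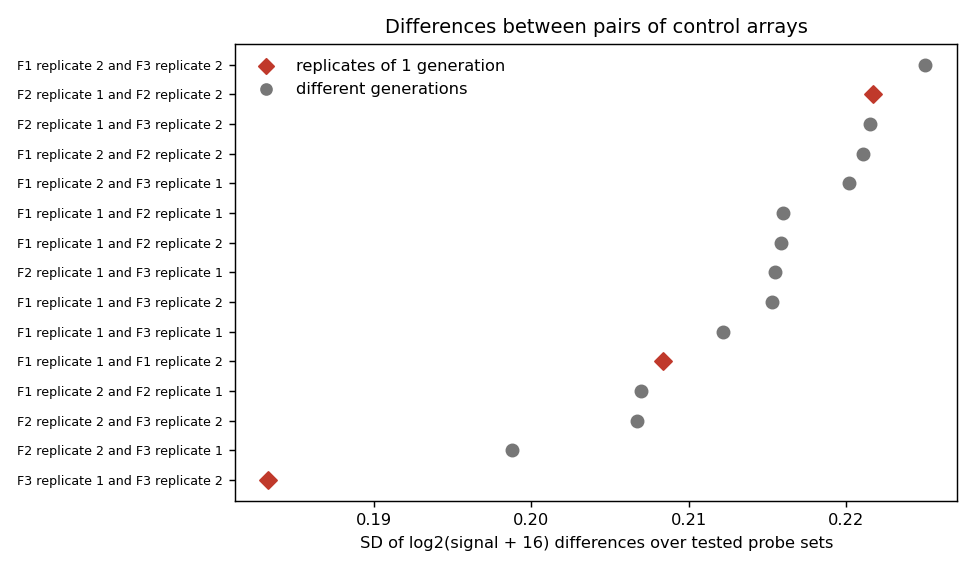
SD of the log2(signal + 16) differences over 21729 tested probe sets for each of the 15 pairs of control arrays; red diamonds are replicates of a generation and grey circles are arrays of different generations. The replicate pairs at 0.183 to 0.222 span nearly the same range as the others at 0.199 to 0.225.

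Each probe set was tested with limma on log2(signal + 16) with the spread of these 6 arrays alone, and the Benjamini-Hochberg threshold for a call was 0.05. The F test over the 3 generations called 2 of 21729 probe sets (0.0092%), with 1848 (8.5%) at an unadjusted p under 0.05. F3 minus F2 called 4 (0.0184%), of which 3 were higher (0.0138%) and 1 lower (0.0046%) in F3, with 1679 (7.73%) at an unadjusted p under 0.05. F2 minus F1 and F3 minus F1 called 0 probe sets in limma (0%), with 1332 (6.13%) and 2132 (9.81%) at an unadjusted p under 0.05. In F3 minus F1, 1008 of these (4.64%) were higher and 1124 (5.17%) lower in F3. At least 1.5-fold, whatever the p, were 82 probe sets in F2 minus F1 (0.377%), 149 in F3 minus F1 (0.686%) and 86 in F3 minus F2 (0.396%). At least 2-fold were 2 (0.0092%), 6 (0.0276%) and 2 (0.0092%).

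None of the 4 called probe sets had exactly 1 gene symbol, so they are given by identifier. Probe set 1367655_at, annotated to both Tmsb10 and Tmsb10-ps6, read 2825 and 3106 in F1, 2358.7 and 2526.3 in F2, and 3710.7 and 3630.2 in F3. The generations did not overlap, and F3 was higher than F2 (log2 difference 0.59 ± 0.05 SE, adjusted p = 0.0059, limma). Probe set 1375751_at read 229.2 and 221.1 in F1, 293.9 and 319.9 in F2, and 167.2 and 184.9 in F3. It ran the other way, lower in F3 than in F2 (-0.75 ± 0.08 SE, adjusted p = 0.0102, limma). Both also passed the F test (adjusted p = 0.0242 and 0.0407). Probe set 1382673_at read 321.2 and 318.5 in F1, 265 and 247.2 in F2, and 368.3 and 388.6 in F3 (F3 minus F2, 0.54 ± 0.07 SE, adjusted p = 0.027, limma). Probe set 1383659_a_at read 105.4 and 90.3 in F1, 73.2 and 86.5 in F2, and 178.2 and 158.1 in F3 (0.94 ± 0.11 SE, adjusted p = 0.027, limma). In all 4 the F1 arrays lay between those of F2 and F3. Without the first F3 array the F test and F3 minus F2 each called 0, as they did with the spread pooled over all 12 arrays or with no filter on low signals. The F test called 1 without either F1 array or the second F3 array and 6 without the second F2 array, F2 minus F1 called 2 without the first F2 array, and F3 minus F1 called 4 without either F2 array.

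The named genes nearest to a call differed in several patterns, and none passed. Myh9, the heavy chain of non-muscle myosin, read 702.6 and 667.2 in F1, 470 and 549.4 in F2, and 463.5 and 486.2 in F3. F1 was above both later generations without overlap (F3 minus F1, -0.51 ± 0.07 SE, adjusted p = 0.13, limma). A second Myh9 probe set read 108.2 and 108.3 in F1, 139.3 and 116 in F2, and 86.1 and 85.3 in F3, with the F2 values above those of F1. Il23a, a cytokine subunit, read 36.1 and 35 in F1, 21.3 and 19.7 in F2, and 6.1 and 6.9 in F3, so that F3 was below the background limit and the size of the difference has no measured lower end (F3 minus F1, adjusted p = 0.13, limma). Bin2 ran the opposite way on a dim probe set, from 6.7 and 11.3 in F1 through 31.9 and 23.1 in F2 to 42 and 39.5 in F3, with F1 below the background limit (F3 minus F1, adjusted p = 0.13, limma). A second and brighter Bin2 probe set overlapped between generations, at 80.7 to 114.3. Cacybp, a partner of ubiquitin ligases, read 821.6 and 867.2 in F1, 1010.9 and 1032.2 in F2, and 1089.3 and 1062 in F3 (0.34 ± 0.05 SE for F3 minus F1, adjusted p = 0.13).

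Rundc3a was low in F2 alone, at 44.6 and 41.2 against 78.3 and 76.4 in F1 and 83.2 and 87.6 in F3 (F3 minus F2, 0.78 ± 0.11 SE, adjusted p = 0.111, limma). Its second probe set was at 82.4 and 65 in F2 and did not share that dip. Thoc2, of the mRNA export machinery, was high in F2 alone, at 334.8 and 330.3 against 231.6 and 266.2 in F1 and 238 and 234.1 in F3 (F3 minus F2, -0.47 ± 0.08 SE, adjusted p = 0.179, limma). In its 3 other probe sets the F1 and F2 values overlapped. Clic1, a chloride channel protein, was lower in F3, at 966.4 and 873.6 against 1099.4 to 1226.1 on the 4 other arrays, and Tpst1, which adds sulphate to tyrosines, at 419.2 and 483.8 against 566.9 to 639.7. Ube2d2, a ubiquitin-conjugating enzyme, was higher in F3, at 945.9 and 929.9 against 729.6 to 782.5 (F3 minus F1, 0.34 ± 0.05 SE, adjusted p = 0.13), but its other probe sets overlapped between generations or differed less. Slbp, which binds histone mRNA, read 395.8 and 377.7 in F3 against 294.7 and 258.2 in F2 (adjusted p = 0.179), and its dimmer second probe set overlapped between generations. Also among the smallest unadjusted p were 1 probe set each of Ssr3 and Mgll, higher in F2 than in F1, of Foxj2, lower in F2 than in F1, of Pnn and Tmem185b, higher in F3, and of Rpl26, lower in F3 than in F2. Mgll was below the background limit in F1, at 3.4 and 7.5. Other probe sets of Pnn did not all share the order, with 1 of lower mean in F3 than in F1 and F2 and 1 that overlapped, and the second probe sets of Tmem185b and Foxj2 overlapped between generations.

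**Figure D4:**
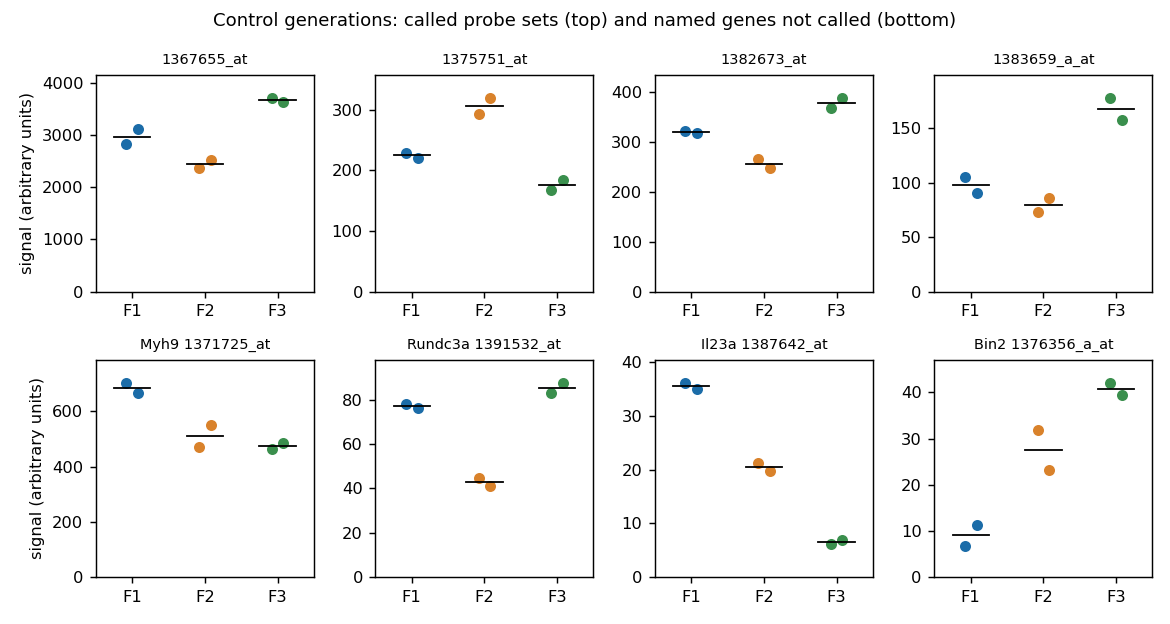
Signal (arbitrary units, axes from 0) of the 4 called probe sets (top) and of Myh9, Rundc3a, Il23a and Bin2, which were not called (bottom), on both arrays of each control generation, with a black line at each mean. In the top row F2 and F3 lie on opposite sides of F1, and in the bottom row Myh9 is high in F1, Rundc3a is low in F2, and Il23a and Bin2 order the generations in opposite directions.

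No member of the 33 gene lists was called in any comparison. Over the 513 list genes tested, 64 (12.5%) had an unadjusted F-test p under 0.05, against 8.5% of all probe sets tested. List genes were taken at their brightest probe set. In the fit with 1 probe set per gene, 1023 of 11248 had an unadjusted F-test p under 0.05. The medians of log2 differences over all tested probe sets were 0, -0.01 and -0.01 for F2 minus F1, F3 minus F1 and F3 minus F2. Leydig cell genes had medians of -0.03, -0.03 and -0.01 over 18 tested, Sertoli genes -0.03, -0.01 and 0.02 over 19, and gonocyte genes -0.01, -0.02 and 0.02 over 12. The summed signal of the 21 Leydig genes ran from 17420.6 to 18231.3 over the 6 arrays, that of the 21 Sertoli genes from 10319.6 to 10749.4, and that of the 12 gonocyte genes from 2223.7 to 2282.8. The F2 and F1 ranges overlapped in each of these sums, and the F3 range overlapped with both in the Leydig and Sertoli sums. The gonocyte sums were 2223.7 and 2250.6 in F2 and 2274.9 and 2254.0 in F3, without overlap.

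Red cell genes leaned to higher signals in F2. At an unadjusted p under 0.05, 7 of 14 tested were higher in F2 than in F1 and none was lower, against 2.95% of all probe sets higher, and the list median was 0.15. Hbz, an embryonic globin, read 601.7 and 552.4 in F1, 662.8 and 820 in F2, and 693.3 and 668 in F3. Hbg1 read 595.6 and 674.6 in F1, 748.5 and 1008.7 in F2, and 873.7 and 719.4 in F3. Ahsp, the chaperone of free alpha globin, read 98.2 and 130.8 in F1, 137.2 and 186.3 in F2, and 152.7 and 142.1 in F3. In all 3 genes both F1 arrays lay below the 4 others. The share of all probe sets in which a generation lay apart in this way was not counted, here or for the genes above. Not all red cell members were higher in F2: over the 14 tested, the log2 differences F2 minus F1 ran from -0.4 to 0.84. The differences F2 minus F1 were 0.35 ± 0.09 SE for Hbz, 0.45 ± 0.12 SE for Hbg1 and 0.44 ± 0.14 SE for Ahsp, and none was called (adjusted p = 0.631, 0.708 and 0.726, limma). Hbe1, by contrast, was lowest in F3, at 4418.5 and 4690.7, and highest in F2, at 5615.6 and 5189.8. Alas2, of heme synthesis in red cells, read 281.9 and 292.7 in F1, 331 and 322.8 in F2, and 298.2 and 298.7 in F3. Tfrc, Slc4a1 and Hba-a3 had unadjusted p of 0.175, 0.88 and 0.27 in F2 minus F1. The list median stayed above 0 under quantile, loess and median scaling, at 0.12 to 0.17. Without the first F1 array 3 members were higher in F2 at an unadjusted p under 0.05, without the first F2 array 4, and with the spread pooled over all 12 arrays 4.

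Ribosomal protein genes differed between F3 and F2. At an unadjusted p under 0.05, 17 of the 27 tested genes of the list were lower in F3 and 1 was higher. Over all probe sets the shares were 4.24% lower and 3.48% higher. The list median was -0.12, with no call. Other measured ribosomal protein genes, Rps23 and Rpl26 among them, were not in the list. Rps6 read 5494.6 and 5626.7 in F1, 6159.3 and 5610 in F2, and 4750.1 and 5212.1 in F3. Rps29 read 6930.5 and 7508.4 in F1, 8337.3 and 7498.7 in F2, and 6742 and 7241.9 in F3. In both the first F2 array was the highest and the first F3 array the lowest, as for the sum of the 27 genes, which was 128960.5 on the former and 112093.3 on the latter. The shift was shared by other probe sets at the top of the range: of the 50 brightest without ribosomal protein genes, 39 were lower in F3 at an unadjusted p under 0.05, with a median of -0.14. Quantile normalization, which gives every array the same distribution of signals, brought the ribosomal median to 0, with 3 members lower and 3 higher. Without the first F2 array 3 of 27 were lower, and without the first F3 array also 3. With the spread pooled over all 12 arrays 1 was lower, under loess normalization 7 and under median centring 10. In F2 minus F1, 2.95% of all probe sets were higher and 3.18% lower at an unadjusted p under 0.05. Of the 3105 bright probe sets, 199 were higher and 64 lower. Of the 58 oxidative phosphorylation genes, 11 were higher in F2 than in F1 and 1 was lower at that threshold, with a median of 0.05. Under quantile normalization 4 were higher and 2 lower, with a median of 0.01, and without the second F2 array 2 were higher and 3 lower.

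**Figure D5:**
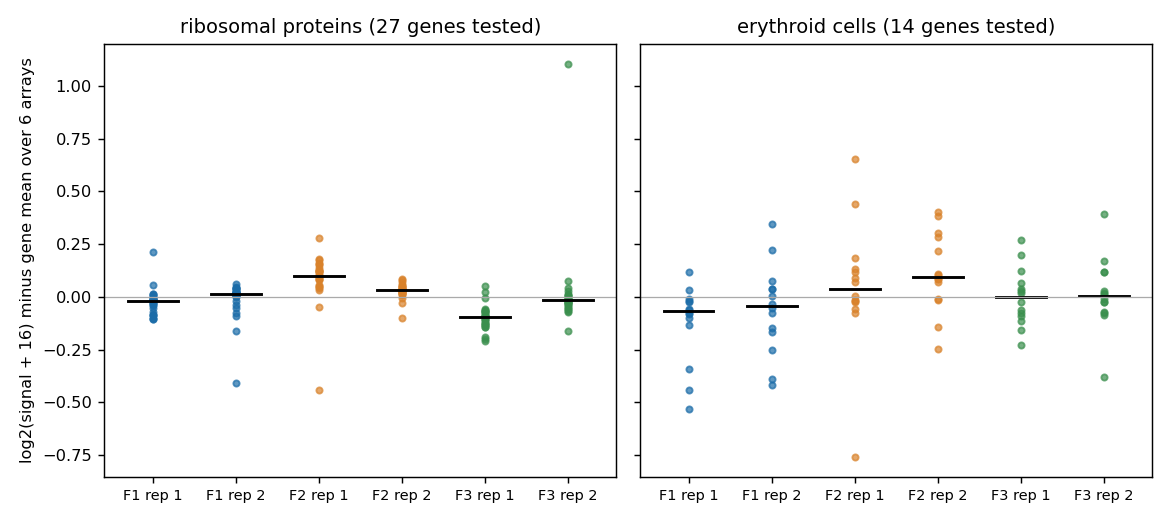
Values are log2(signal + 16) minus each gene's mean over the 6 control arrays, by array. They are for the tested members of the ribosomal protein list (27) and of the red cell list (14). Black lines are medians and colours mark generations. Ribosomal medians are highest on the first F2 array and lowest on the first F3 array, and red cell medians are below 0 on both F1 arrays.

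Technical measures were similar on the 6 arrays except for one. The ratio of the 5′ to the 3′ signal of beta-actin, which falls when RNA is degraded or copied short, was 0.453 ± 0.018 (0.423 to 0.471), that of Gapdh 0.986 ± 0.022, and array medians ran from 44.5 to 47.1. The spikes added to each hybridisation had a geometric mean of 578 and 607 in F1, 737.5 and 740.6 in F2, and 680.8 and 715.1 in F3, with no overlap between generations (exact permutation test over the 15 ways to form 3 pairs, p = 0.0667, the smallest possible, and 0.333 adjusted over 5 measures). By group mean the spikes were in the same order as Hbz, Hbg1 and Ahsp, F1 lowest and F2 highest, and their part in the differences was not tested.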

How the data were processed

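Total RNA was labelled with biotin and hybridised by standard Affymetrix procedures, per the labels' protocols. The authors deposited 1 linear intensity for each probe set and array. The 2% trimmed mean was 125.03 on each control array, so a common scaling preceded deposit; software and detection calls are not given in the sources used here. Of 31099 probe sets, 57 were Affymetrix controls, used for quality only. Of the rest, 20837 had 1 gene symbol in the array annotation, 425 several and 9780 none, and 20758 gene entries matched the current rat gene table. A gene took the value of its brightest probe set. Of 595 list genes, 185 had several probe sets, and in 59 of those above the background limit the dimmest was at or below it.

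Values were transformed as log2(signal + 16), which understates fold changes of dim genes. The lowest 30% of probe sets (9313, below a signal of 15.1) were left out. The fit of 3 generation means used limma 3.58.1 (R 4.3.3; lmFit, eBayes with trend) on the 6 control arrays alone (3 residual and 8.16 prior degrees of freedom). The smallest 2-sided p of an exact permutation test is 0.333 for 2 arrays against 2. On simulated data for F3 minus F1 among 21729 probe sets, 88.3% of 1.5-fold and 100% of 2-fold and 4-fold changes were recovered, with 13 unchanged probe sets called. The simulated noise was normal with 1 SD at each signal level, which real probe sets need not follow. These shares are therefore not the power on the arrays themselves. There, 149 probe sets differed by at least 1.5-fold in F3 minus F1, and 0 were called. Named genes were set by rule: called probe sets, or else the 3 smallest p in each direction, the 10 smallest F-test p, the 20 genes of highest signal, the 10 bright genes of largest spread, and the defining, highest and most variable members of each list. Not all genes so set are named above. The most variable Leydig, Sertoli, gonocyte and red cell members, Dlk1, Krt18, Nanos3 and Hbe2, are among those left out. Other list members are named as background to their list and were picked after their values were seen. The members, lists and alternatives were chosen with earlier results of these data known.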

Additional observations from a re-analysis of the deposited data

Results flagged for a closer look

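Over the 6 control arrays, 253 values were screened for 1 array far from the other 5 (Dixon's test at the 95% level), and 14 (5.53%) were so marked. Chance marks about 1 in 20 such groups. They fell on all 6 arrays, 4 of them on the first F1 array.

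The first F1 array was high in Ramp2 (382.6, next 335.4), Pax8 (40.2, next 28.7), Scgb1d4 (9.3, next 3.6) and Fkbp4 (777.5, next 743.2). The second F1 array was low in Tagln (277.4, next 314.0) and high in Kdm1a (841.6, next 789.8). The first F2 array was high in the endothelial gene Pecam1 (126.2, next 108.3) and the complement gene C1qa (50.4, next 46.3). The second F2 array was high in Bmp2 (114.2, next 93.8) and Aldh1a1 (1273, next 1168) and low in the imprinted RNA gene Meg3 (405, next 551.5). The first F3 array was low in Ints4 (302.3, next 432.4). The second F3 array was high in Rpl39 (184.4, next 80.8) and low in the summed signal of the 12 hepatocyte genes (103.5, next 135.5), 10 of which were near background.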

How the results depend on the processing

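The 2 calls of the F test fell to 0 with no filter on low signals, with the spread pooled over all 12 arrays, with 1 probe set per gene and with the replicate number as a block. The 4 calls of F3 minus F2 fell to 0 under the first 3 of these and to 2 with the block. Leaving out each array in turn gave 0 to 6 calls in the F test, 0 to 2 in F2 minus F1, 0 to 4 in F3 minus F1 and 0 to 4 in F3 minus F2. Replicate numbers did not pair the arrays. The log2 differences of replicate 2 minus replicate 1, taken within each generation, correlated between generations at -0.0658, -0.0109 and -0.00676. Median centring called Rundc3a in F3 minus F2 (adjusted p = 0.0472, limma), and Myh9 was called in F3 minus F1 without the first or the second F2 array (adjusted p = 0.025 and 0.0257, limma); the cause was not tested. Of 48 differences of the 20 probe sets named for drift, 0 were counted as reversed under the alternatives run. A change of sign was counted only where the difference was called or was at least 2 SE in size. Smaller differences could therefore change sign without being counted. Other named genes were not followed singly. The number of probe sets near background moved between 8112 and 10534. With the median in place of the brightest probe set, the count of bright members was within 1.5 times in 32 of 33 lists and that of members near background in 28. With the top 20% of probe sets taken as bright, the count of bright members was within 1.5 times in 22 of 33 lists, and gonocyte genes, for example, had 5 bright in place of 1 and Wnt genes 10 in place of 3. The list medians under other scalings, and without each array, were chosen after seeing the data. No probe set called had 1 symbol, so none entered the fit with 1 probe set per gene. The number of arrays, 2 a generation, limits the precision, and signals below 17.6 cannot be told from background.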

Other observations

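Energy and stress genes outside the comparisons above gave a similar picture of levels. Of 20 glycolysis genes, 10 were bright and 10 intermediate. Pgam1 (2639 ± 32, SD over the 6 control arrays), Eno1 (2552 ± 56.2) and Ldha (1374 ± 53.9) were bright, and the hexokinase gene Hk2 was intermediate at 33.7 ± 4.84. The glucose carrier gene Slc2a1 was intermediate at 305 ± 6.81. Of 14 hypoxia and metallothionein genes, Ddit4 alone was bright (483 ± 18.5), Vegfa, the angiogenic factor, was intermediate (160 ± 11.7), and Mt1 and Adm were near background.

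Among transcription factors and signals of early gonad formation, 8 of 20 were bright and 11 intermediate, and Sry was near background. Sox4 (1377 ± 33.3) and Lhx9 (834 ± 47.1) were bright, and the GATA cofactor gene Zfpm2 (215 ± 22.1) and the Polycomb gene Cbx2 (178 ± 14.5) were intermediate. Map3k4, a kinase upstream of Sry in the mouse, read 549.8 and 563.3 in F1, 562.6 and 446.8 in F2, and 482.3 and 393.5 in F3, without a call (adjusted p = 0.53, limma F test).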
